A study of Mus musculus with 6 samples.

Results

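The 31 genes described here mark the B lineage from its precursors to antibody-secreting plasma cells, leaving out the immunoglobulin loci themselves. They were chosen by symbol from a list of known B lineage genes, and all 31 were among the 22298 genes of the tables. The choice, like that of all gene lists used here, was made with earlier results of these data known. Shares set beside those of all genes therefore describe the lists and test nothing. The 31 were grouped by a stage to which each can be linked: 8 precursor genes, 13 naive B cell genes, 3 germinal centre genes and 7 plasma cell genes. Several are also expressed at other stages or outside the B lineage, so the stages name the genes and not the cells that were sorted.

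Early B cell precursors switch on the factors EBF1 and PAX5 and build a trial receptor, the pre-B cell receptor, in which the surrogate light chain proteins VPREB and lambda-5 stand in for a light chain. Naive B cells carry a complete receptor with its signalling partners CD79A and CD79B, and in germinal centres activated B cells mutate and switch their antibody genes. Plasma cells then turn off much of this programme and, under the factors BLIMP1 (gene Prdm1), IRF4 and XBP1, become secretory cells. The thymus, the organ in which T cells form, also houses a small population of resident B cells and plasma cells.

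The RNA came from thymocytes of C57BL/6 mice that were sorted by flow cytometry and labelled double-negative (DN), the name of T cell precursors that carry neither CD4 nor CD8 at the surface. Toxf/f mice have floxed alleles of Tox, which encodes an HMG-box nuclear protein needed by developing T cells. Toxf/fPdcd1Cre mice have the same alleles together with a Cre recombinase named for Pdcd1, the PD-1 gene. None was treated. Each genotype had 3 samples, replicates 1 and 2 aged 3 weeks and replicate 3 aged 4 weeks. Replicates 1 and 2 of Toxf/f had the same table, value for value, which was counted once, as the shared Toxf/f library, which leaves 2 Toxf/f and 3 Toxf/fPdcd1Cre libraries. The labels name no single mice and do not say whether animals were pooled. Age separates the Toxf/f libraries from each other and Toxf/fPdcd1Cre replicate 3 from replicates 1 and 2, and a Y chromosome gene, Ddx3y, separates the latter pair, so the spread behind the p-values includes differences between animals.

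The libraries held between 14245492 and 16199195 estimated counts each. Tox held 1896 and 1746 counts in Toxf/f, against 281, 257 and 201 in Toxf/fPdcd1Cre replicates 1, 2 and 3, so the targeted gene moved as the labels say (log2 fold change -2.78 ± 0.161, SE). Titles speak of DN cells and the protocol of DN2 cells, an early DN stage. Cd4 and Cd8a transcripts, which define the cells that DN thymocytes should exclude, were at 718 to 982 and 1395 to 2017 CPM (counts scaled to TMM-adjusted library size), which goes against a pure DN sort. Toxf/fPdcd1Cre replicate 1 differed from the other 4 libraries in the Y chromosome gene Ddx3y (1 count against 843 to 1354). In such bulk libraries fewer cells of a type and less RNA per cell cannot be told apart.

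The sequences below belong to the genes on which the results turn. Each is the 250 bases before a start that RefSeq's promoter table lists on GRCm38.p6, 5′ to 3′ on the gene's strand. For Fcer2a, Vpreb1 and Vpreb3 that start lies inside the longer gene span of GENCODE, so their windows lie within the gene. Capitals mark a match, on either strand, to the E-box CAGGTG, the core bound by E proteins, or to the octamer ATGCAAAT, bound by OCT2 and its partner, the product of Pou2af1. Jchain, on chromosome 5 at 88519809 to 88527891, encodes the joining chain that links IgA and IgM units, and its window (chr5:88527898-88528147, minus strand) held neither. Fcer2a, on chromosome 8 at 3681737 to 3694175, encodes CD23, the low-affinity IgE receptor, and the window of 1 of its 3 listed starts (chr8:3690862-3691111, minus strand) held 2 E-boxes, while those of its other starts held none. Igll1, on chromosome 16 at 16860671 to 16863985, encodes lambda-5, and its window (chr16:16863986-16864235, minus strand) ended in an E-box. Vpreb1 (window chr16:16869256-16869505, minus strand) lies 4418 bases beyond Igll1, on the same strand, and Vpreb3 (window chr10:75948050-75948299, plus strand) held an octamer. Gene positions are those of GENCODE M21 on GRCm38.
Jchain: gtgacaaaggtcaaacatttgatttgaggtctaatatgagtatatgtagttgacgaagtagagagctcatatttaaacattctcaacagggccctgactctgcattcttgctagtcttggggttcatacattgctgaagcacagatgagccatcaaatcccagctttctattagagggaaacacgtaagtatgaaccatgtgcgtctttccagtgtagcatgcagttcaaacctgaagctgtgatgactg
Fcer2a: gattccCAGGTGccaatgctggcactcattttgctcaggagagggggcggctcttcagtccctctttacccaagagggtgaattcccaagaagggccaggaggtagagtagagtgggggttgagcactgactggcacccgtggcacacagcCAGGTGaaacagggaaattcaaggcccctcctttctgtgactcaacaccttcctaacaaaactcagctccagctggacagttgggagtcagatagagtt
Igll1: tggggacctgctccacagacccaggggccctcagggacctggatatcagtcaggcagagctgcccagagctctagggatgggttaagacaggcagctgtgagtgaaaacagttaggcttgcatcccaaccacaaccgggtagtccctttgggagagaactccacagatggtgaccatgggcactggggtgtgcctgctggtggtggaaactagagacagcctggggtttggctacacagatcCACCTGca
Vpreb1: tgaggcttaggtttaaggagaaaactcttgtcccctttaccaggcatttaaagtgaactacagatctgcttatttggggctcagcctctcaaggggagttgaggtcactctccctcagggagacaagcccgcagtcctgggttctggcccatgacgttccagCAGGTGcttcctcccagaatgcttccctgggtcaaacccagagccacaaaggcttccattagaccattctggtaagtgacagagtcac
Vpreb3: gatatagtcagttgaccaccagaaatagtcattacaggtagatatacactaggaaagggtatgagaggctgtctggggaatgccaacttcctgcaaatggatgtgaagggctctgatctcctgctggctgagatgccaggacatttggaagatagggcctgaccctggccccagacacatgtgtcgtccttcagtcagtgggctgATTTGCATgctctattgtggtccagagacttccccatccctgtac

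Among the 26 members with an entry in that table, 14 held the E-box CAGGTG in at least 1 window (53.8%), against 19.4% of all 27025 genes. They came from every stage: Igll1, Vpreb1, Vpreb2 and Blnk among the precursor genes, Bank1, Cd22, Cd79a, Cr2, Fcer2a, Ralgps2 and Tnfrsf13c among the naive genes, Fcrla among the germinal centre genes, and Prdm1 and Xbp1 among the plasma cell genes. The octamer was in the windows of 2 members, Blnk and Vpreb3 (7.69%, against 1.81% of all genes). The XBP1-type motif TGACGTGG, also searched on both strands, was in that of Pou2af1 alone (3.85%, against 0.603%). A match describes letters in a window and shows no binding.

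The members spanned a wide range of levels. On the per-length scale, FPKM (fragments per length of transcript and per library size), 7 had a mean over the 5 libraries of at least 10, 19 a mean from 1 to under 10, and 5 a mean under 1. The highest was Ly6d, a surface protein of lymphoid progenitors that is also on thymocytes, at a mean of 395 FPKM and rank 165 among all genes. Xbp1, a factor of secretory cells that is expressed in many cell types, followed at 88.9 FPKM and rank 881. Ralgps2 (35.3 FPKM), Tnfrsf13b (20.2), Cd79b (18.1), Mzb1 (14.0) and Jchain (12.2) came next by mean FPKM. Pax5 and Ebf1, the factors that define the B lineage, stood at means of 1.00 and 0.986 FPKM.

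**Figure D1:**
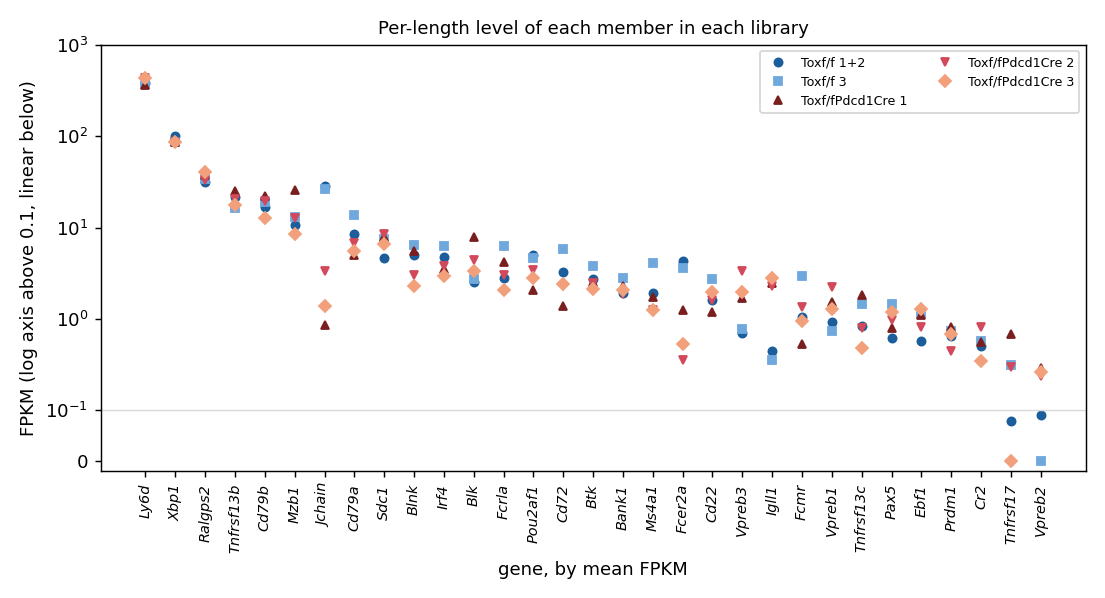
FPKM of each of the 31 members in each of the 5 libraries, ordered by mean FPKM, on an axis that is logarithmic above 0.1 and linear below. Ly6d and Xbp1 lead in every library, while Jchain separates into 2 Toxf/f libraries near 27 to 29 FPKM and 3 Toxf/fPdcd1Cre libraries at 0.86 to 3.37 FPKM.

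Jchain and Fcer2a RNA was lower in Toxf/fPdcd1Cre than in Toxf/f libraries. Igll1, with 5 to 37 counts a library, was called higher, a call that held under 9 of 18 alternative settings. The other members tested did not pass in either direction. Of the 31 members, 29 had enough counts to be tested. The test called 2 of these lower, where 1.51% of all 14121 genes tested were called lower, and 1 higher, where 0.135% of all genes were called higher (edgeR's quasi-likelihood test, Benjamini-Hochberg adjusted p under 0.05). Igll1, Vpreb1 and Vpreb3 reached the filter on counts through the Toxf/fPdcd1Cre libraries alone, so those that passed had to be higher there. In 9 members every Toxf/fPdcd1Cre library lay below both Toxf/f libraries (31.0% of those tested, against 13.5% of all genes), and in 4 every one lay above (13.8%, against 12.6%, which is near the share of all genes). In either direction 1.64% of all genes were called. At an unadjusted p under 0.05 there were 7 members lower and 3 higher, where 7.26% and 3.08% of all genes were. The median log2 fold change was -0.24 over the 29, and 0.03 over all genes tested.

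**Figure D2:**
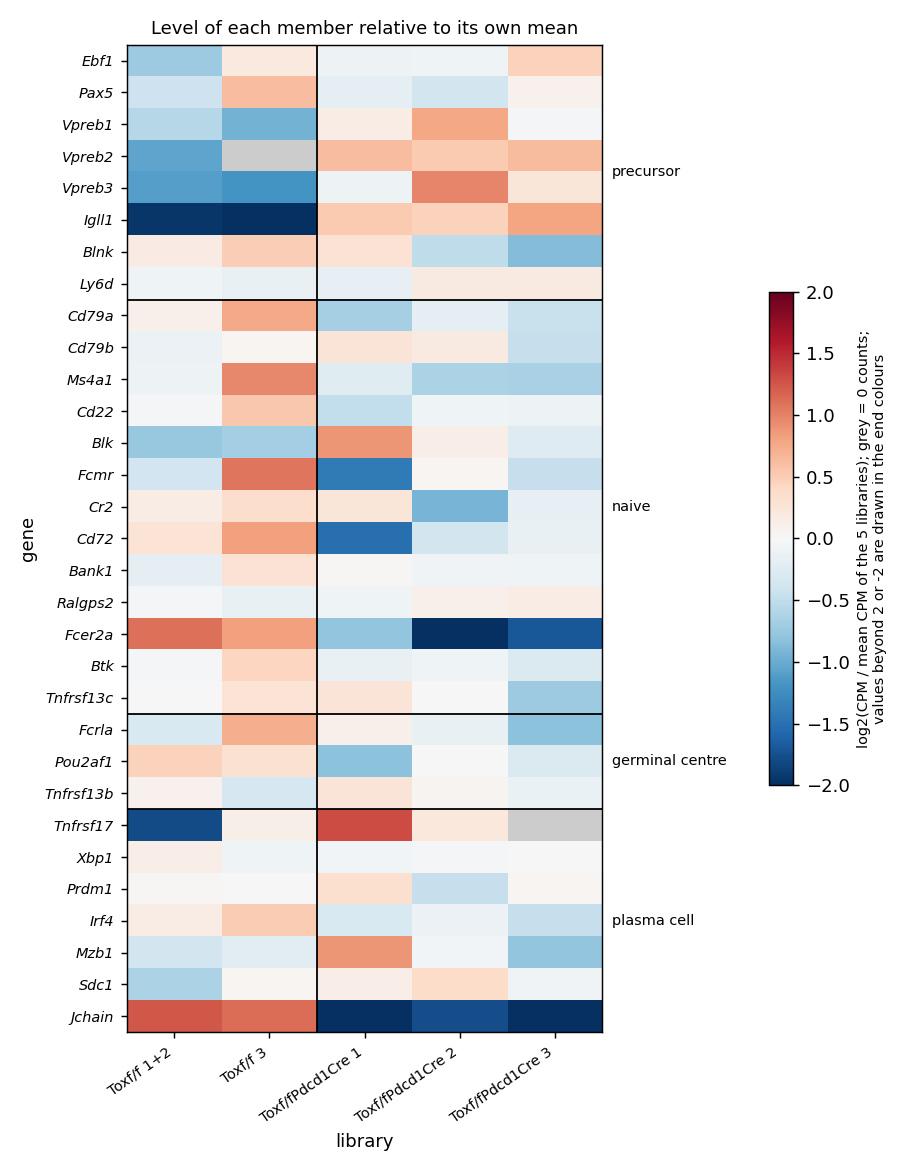
Level of each member in each library as log2 of its CPM over its mean CPM of the 5 libraries, by stage, with grey for 0 counts and values beyond 2 or -2 in the end colours. Jchain and Fcer2a are red in both Toxf/f libraries and blue in the 3 Toxf/fPdcd1Cre libraries, and Igll1 shows the opposite.

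The plasma cell genes did not move together. Jchain fell steeply, Irf4 was lower without passing the test, and Xbp1, Prdm1, Mzb1 and Sdc1 gave no called difference.

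Jchain had 613 counts in the shared Toxf/f library and 597 in Toxf/f replicate 3, against 17, 76 and 29 counts in Toxf/fPdcd1Cre replicates 1, 2 and 3. Those counts correspond to 28.5 and 26.7 FPKM in Toxf/f and to 0.86, 3.37 and 1.37 FPKM in Toxf/fPdcd1Cre. The genotypes were far from overlapping, and within Toxf/fPdcd1Cre replicate 2 stood highest. Its mean level was 37.6 ± 2.32 CPM (SD, n = 2) in Toxf/f, and the 2.67 ± 1.93 CPM (SD, n = 3) of Toxf/fPdcd1Cre was 7.10% of it. The log2 fold change was -3.80 ± 0.378 (SE; 95% interval -4.63 to -2.97), and edgeR gave an adjusted p of 0.000508. At 3 weeks (1 Toxf/f against 2 Toxf/fPdcd1Cre libraries) the Toxf/fPdcd1Cre level was 7.66% of the Toxf/f level. At 4 weeks (1 against 1) it was 5.55%, so the fall was present at both ages. The call was kept when any 1 library was left out, with adjusted p-values of 5.15e-07 to 0.0317.

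The constant genes of the antibody loci are no members, but Jchain's level can be set beside them. Igkc, the kappa light chain, was at 155 and 110 CPM in Toxf/f and at 6.83, 18.8 and 10.7 CPM in Toxf/fPdcd1Cre, where replicate 2 was again the highest (log2 fold change -3.45 ± 0.308, adjusted p = 0.000326). Igha, the IgA heavy chain, held 556 and 533 counts in Toxf/f and 3, 3 and 9 in Toxf/fPdcd1Cre. Ighm, the IgM heavy chain, whose unrearranged locus is also transcribed in thymocytes, was at 744 and 585 CPM against 499, 633 and 564 CPM, ranges that overlapped (adjusted p = 0.715).

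Irf4, a factor of plasma cells and of activated T cells, was at 22.4 and 28.6 CPM in Toxf/f and at 16.3, 18.6 and 14.6 CPM in Toxf/fPdcd1Cre. The libraries did not overlap, yet the difference missed the threshold (log2 fold change -0.63 ± 0.179, 95% interval -1.02 to -0.24, adjusted p = 0.148). Xbp1, which drives expansion of the secretory machinery, was at 198 and 170 CPM in Toxf/f and at 174, 178 and 181 CPM in Toxf/fPdcd1Cre. These ranges overlapped, and the interval of the log2 difference ran from -0.33 to 0.24. Prdm1, which encodes the plasma cell regulator BLIMP1, ranged from 2.43 to 4.17 CPM over all libraries, with both extremes in Toxf/fPdcd1Cre and a log2 fold change of -0.01 (95% interval -0.78 to 0.77).

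Sdc1, the plasma cell surface proteoglycan CD138, which epithelial cells also carry, was at 13.1 and 20.7 CPM in Toxf/f and at 22.1, 26.0 and 19.3 CPM in Toxf/fPdcd1Cre, with overlap (adjusted p = 0.567). Mzb1, an endoplasmic reticulum protein that assists antibody assembly, was at 9.41 and 10.4 CPM in Toxf/f and at 22.4, 11.7 and 7.02 CPM in Toxf/fPdcd1Cre. Its spread lay within Toxf/fPdcd1Cre, where replicate 1 was the highest and replicate 3 the lowest of all 5 libraries (log2 fold change 0.47, adjusted p = 0.781). Without replicate 1 its log2 fold change was -0.12. Mzb1 overlaps Spata24 on the same strand, and reads of the overlap could be counted for either gene. Tnfrsf17, the plasma cell survival receptor BCMA, held 1 and 4 counts in Toxf/f and 8, 4 and 0 in Toxf/fPdcd1Cre, too few to be tested.

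Of 23 genes of the plasma cell secretory pathway (chaperones, glycoprotein quality control and plasma cell cofactors), 22 were tested. Of these 1 was called lower (4.55%, against 1.51% of all genes tested) and none higher, with a median log2 fold change of -0.05. Derl3, not called, reached the filter on counts through the Toxf/f libraries alone and so had to be lower. Slamf7, a surface receptor of plasma cells that natural killer cells and other leukocytes also carry, was the called gene, at 16.0 and 20.6 CPM in Toxf/f against 9.91, 10.3 and 9.29 CPM (log2 fold change -0.90 ± 0.193, adjusted p = 0.0415). That call was lost (adjusted p up to 0.502) when either Toxf/f library, or Toxf/fPdcd1Cre replicate 2 or 3, was left out. Edem1 and Hspa5, the endoplasmic reticulum genes of this list with the highest mean CPM, averaged 980 and 381 CPM in Toxf/f and 862 and 370 CPM in Toxf/fPdcd1Cre (adjusted p = 0.812 and 0.969).

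**Figure D3:**
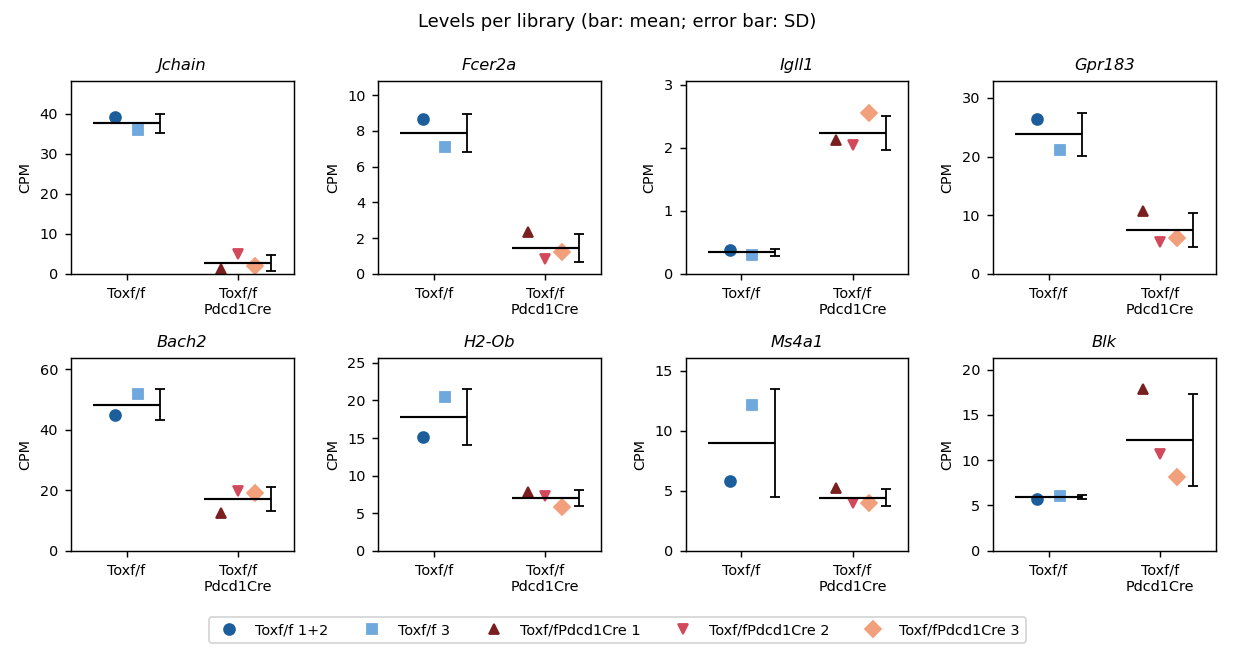
CPM per library of 8 genes, one symbol per library, with the mean (bar) and SD (error bar) of each genotype. Jchain, Fcer2a, Gpr183, Bach2 and H2-Ob are lower in every Toxf/fPdcd1Cre library, Igll1 and Blk are higher, and Ms4a1 is high in Toxf/f replicate 3.

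Among the naive B cell genes, Fcer2a fell about as much in both age groups, each of which had 1 Toxf/f library. Most other genes of this stage lay below their Toxf/f level without passing the test. Of the 13, all were tested, 1 was called lower (7.69%, against 1.51% of all genes tested) and none higher. For 10 of the 13 the log2 fold change was below 0, with a median of -0.46. Over all 14121 genes tested it was below 0 for 6388. In 6 of the 13 (46.2%) the libraries did not overlap and were lower, against 13.5% of all genes.

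Fcer2a held 135 and 118 counts in Toxf/f and 34, 13 and 18 in Toxf/fPdcd1Cre, or 4.34 and 3.64 FPKM against 1.24, 0.36 and 0.53 FPKM. Both Toxf/f libraries were well above all 3 Toxf/fPdcd1Cre libraries. The Toxf/f mean was 7.88 ± 1.09 CPM (SD, n = 2), that of Toxf/fPdcd1Cre was 1.46 ± 0.772 CPM (SD, n = 3), a fitted 5.37-fold fall (log2 fold change -2.43 ± 0.397, 95% interval -3.30 to -1.56, adjusted p = 0.0107 in edgeR). At 3 weeks (1 Toxf/f against 2 Toxf/fPdcd1Cre libraries) the Toxf/fPdcd1Cre level was 18.2% of Toxf/f, and at 4 weeks (1 against 1) 17.4%. Without the shared Toxf/f library the adjusted p was 0.178 and without Toxf/f replicate 3 it was 0.154, with the direction kept.

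Both signalling chains of the B cell receptor were read, and they differed from each other. Cd79a was at 12.2 and 19.2 CPM in Toxf/f and at 7.17, 10.1 and 8.39 CPM in Toxf/fPdcd1Cre, without overlap (log2 fold change -0.88 ± 0.243, 95% interval -1.41 to -0.35, adjusted p = 0.131). Its partner Cd79b, which stood at a higher mean FPKM (18.1 against 7.88), was at 20.7 and 23.1 CPM in Toxf/f and at 26.8, 25.6 and 16.4 CPM in Toxf/fPdcd1Cre. Those ranges overlapped, with an interval of the log2 difference from -0.39 to 0.53, and the sign of its fold change turned under several settings. Whether the 2 genes differ in their response was not tested.

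Among the surface receptors, Ms4a1, which encodes CD20, was at 5.83 and 12.2 CPM in Toxf/f and at 5.26, 4.02 and 3.99 CPM in Toxf/fPdcd1Cre (log2 fold change -1.03 ± 0.325, adjusted p = 0.205). Most of that distance came from Toxf/f replicate 3, since the shared Toxf/f library lay close to Toxf/fPdcd1Cre replicate 1. Cd22, an inhibitory co-receptor, was at 5.95 and 8.86 CPM against 4.37, 5.74 and 5.71 CPM (adjusted p = 0.621). Cd72, another inhibitory co-receptor, was at 6.59 and 9.58 CPM against 1.91, 4.21 and 4.88 CPM (log2 fold change -1.14 ± 0.367, adjusted p = 0.218). Neither gene overlapped between genotypes. Cd72 overlaps Tesk1 on the other strand and its estimated counts were not whole in any library, and how such values arose is not given in the sources used here.

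Btk, the kinase of B cell receptor signalling that myeloid cells also use, was at 6.85 and 9.34 CPM in Toxf/f and at 6.29, 6.57 and 5.71 CPM in Toxf/fPdcd1Cre, lower without overlap (adjusted p = 0.692). Blk, a SRC family kinase of B cells that interleukin-17 producing gamma-delta T cells also express, went the other way. It was at 5.76 and 6.08 CPM in Toxf/f and at 17.9, 10.7 and 8.12 CPM in Toxf/fPdcd1Cre. All 3 Toxf/fPdcd1Cre libraries were above both Toxf/f libraries, with replicate 1 the highest (log2 fold change 1.04 ± 0.316, 95% interval 0.35 to 1.74, adjusted p = 0.177).

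The 12 listed marker genes of interleukin-17 gamma-delta T cells are given beside Blk for that reason. Their summed level was 530 to 588 CPM in Toxf/f and 673 to 895 CPM in Toxf/fPdcd1Cre. Of 11 tested, Trdc and Cd163l1 were called higher (18.2%, against 0.135% of all genes tested) and Ccr6 lower (9.09%, against 1.51%). Of these 11, 8 were highest in Toxf/fPdcd1Cre replicate 1, where Blk was highest too. In that library 21.5% of all genes tested were highest. Cd163l1, a scavenger receptor of these cells, was at 5.31 and 3.25 CPM in Toxf/f and at 78.0, 27.4 and 25.4 CPM in Toxf/fPdcd1Cre. None of the listed markers was at 0 in all libraries, though Il17a was at 0 in 3 of the 5. Their part in the level of Blk was not tested.

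Ralgps2, an exchange factor for Ral proteins, was at 130 and 118 CPM in Toxf/f and at 124, 141 and 146 CPM in Toxf/fPdcd1Cre, with overlap (adjusted p = 0.832); it overlaps Angptl1 on the other strand. The remaining 4 naive genes were low and overlapped between genotypes. Fcmr, the Fc receptor for IgM, ranged from 1.66 to 4.58 CPM in Toxf/f and from 0.82 to 2.23 CPM in Toxf/fPdcd1Cre. Cr2, the complement receptor CD21, ranged from 2.30 to 2.65 CPM and from 1.09 to 2.46 CPM. Bank1, a scaffold of receptor signalling, stayed within 5.89 to 8.19 CPM over all 5 libraries, and Tnfrsf13c, the BAFF receptor that keeps naive B cells alive, within 0.96 to 1.93 CPM. Their adjusted p-values were 0.560, 0.838, 0.948 and 0.940 in that order.

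The naive genes also differed between the Toxf/f libraries. In 11 of the 13 the level was higher in Toxf/f replicate 3 than in the shared Toxf/f library (84.6%, against 48.8% of all genes tested), with a median ratio of 1.36 against 0.993 over all genes. For 9 of the 13 replicate 3 was the highest of all 5 libraries (69.2%, against 19.8%). Fcer2a and Ralgps2 were the exceptions to the first count. Other lists leaned the same way: Toxf/f replicate 3 was above the shared library in 11 of 13 thymic epithelial markers (84.6%), 12 of 16 conventional dendritic cell markers (75.0%) and 23 of 25 further B lineage genes (92.0%). Their part in the levels of the naive genes was not tested. Replicate 3 was also the only Toxf/f library from 4-week-old mice, and with 1 library at each age a difference of age and of library cannot be told apart.

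A wider list of 25 B lineage and B cell receptor signalling genes that are no members was read beside them. All 25 were tested, 2 were called lower (8%, against 1.51% of all genes tested) and none higher. For 22 of the 25 the log2 fold change was below 0, with a median of -0.43. Over all 14121 genes tested it was below 0 for 6388. Among the 22 was Fcrl5, which reached the filter on counts through the Toxf/f libraries alone and so had to be lower. The called genes were Bach2, a repressor that holds back plasma cell differentiation and is also active in T cells, and H2-Ob, a chain of the peptide-loading modulator H2-O. Bach2 was at 44.8 and 51.9 CPM in Toxf/f and at 12.4, 19.8 and 19.1 CPM in Toxf/fPdcd1Cre (log2 fold change -1.50 ± 0.193, adjusted p = 0.00290). H2-Ob was at 15.1 and 20.4 CPM and at 7.86, 7.28 and 5.85 CPM (log2 fold change -1.34 ± 0.221, adjusted p = 0.0110). In both genes the genotypes were well apart, although the call was lost without Toxf/f replicate 3 (adjusted p = 0.102 for Bach2 and 0.268 for H2-Ob) and, for H2-Ob, also without the shared Toxf/f library (adjusted p = 0.0585). Cd24a and Ikzf3, the genes of this list with the highest mean CPM, which thymocytes also express, had adjusted p-values of 0.736 and 0.356.

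Conventional dendritic cells, macrophages and B cells share antigen presentation genes, and markers of the first are given here beside the naive genes. The 16 listed conventional dendritic cell markers summed to 2810 to 3349 CPM in Toxf/f and to 1502 to 2074 CPM in Toxf/fPdcd1Cre. Most of each sum came from H2-Aa, H2-Ab1, H2-Eb1 and Cd74, antigen presentation genes of the shared kind. Of the 16 markers, 5 were called lower (31.25%, against 1.51% of all genes tested) and none higher. Those called were Ccl22, Fscn1, Flt3, H2-Eb1 and Cd74. The 12 monocyte and macrophage markers summed to 931 to 1023 CPM and to 638 to 756 CPM, with none called. No marker on either list was at 0 in any library. Their part in the levels of the naive genes was not tested.

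None of the 3 members grouped as germinal centre genes passed the test, and none of them is particular to that stage. Pou2af1, the octamer co-activator needed for germinal centres, came nearest, at 12.5 and 11.3 CPM in Toxf/f and at 5.12, 9.06 and 7.43 CPM in Toxf/fPdcd1Cre. Its libraries did not overlap (log2 fold change -0.72 ± 0.257, 95% interval -1.28 to -0.16, adjusted p = 0.292). Fcrla, an Fc receptor-like protein inside B cells, ranged from 4.10 to 8.37 CPM in Toxf/f and from 2.89 to 5.47 CPM in Toxf/fPdcd1Cre (adjusted p = 0.729). Tnfrsf13b, the BAFF and APRIL receptor TACI, was the most abundant of the 3 by FPKM, at 54.7 and 40.8 CPM in Toxf/f and at 62.0, 53.7 and 47.1 CPM in Toxf/fPdcd1Cre. Its ranges overlapped, with an interval of the log2 difference from -0.19 to 0.56.

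A further list linked to germinal centres held 1 called gene, Gpr183, which is not particular to that stage. Of 18 listed, 16 were tested, 1 was called lower (6.25%, against 1.51% of all genes tested) and none higher. The median log2 fold change over the 16 was -0.02, so Gpr183 does not stand for the list. Serpina9, not called, reached the filter on counts through the Toxf/f libraries alone and so had to be lower. Gpr183, a receptor that positions B cells and other leukocytes, was at 26.4 and 21.2 CPM in Toxf/f and at 10.8, 5.43 and 6.12 CPM in Toxf/fPdcd1Cre (log2 fold change -1.68 ± 0.269, adjusted p = 0.00939; 0.177 without the shared Toxf/f library and 0.114 without Toxf/f replicate 3). It overlaps Ubac2 on the other strand. Gna13 and Bcl6, the genes of this list with the highest mean CPM, which thymocytes also express, had adjusted p-values of 0.926 and 0.641.

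Among the precursor genes Igll1 was called higher, and the related genes Vpreb1 and Vpreb3 did not pass the test. All 3 were at very low levels and were tested only because of their counts in Toxf/fPdcd1Cre, so no direction is read from them as a group.

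Igll1 held 6 and 5 counts in Toxf/f and 31, 32 and 37 counts in Toxf/fPdcd1Cre. On the per-length scale it stood at 0.45 and 0.36 FPKM against 2.50, 2.27 and 2.80 FPKM. The libraries within each genotype lay close together and the genotypes did not overlap. The fitted rise was 6.41-fold (log2 fold change 2.68 ± 0.543, 95% interval 1.49 to 3.87, adjusted p = 0.0314 in edgeR). By age the rise of Igll1 was 5.41-fold at 3 weeks (1 Toxf/f against 2 Toxf/fPdcd1Cre libraries). It was 8.45-fold at 4 weeks (1 against 1, with 5 and 37 counts). Its call was lost in 4 of the 5 fits that left out 1 library: the adjusted p was 0.216 without the shared Toxf/f library, 0.349 without Toxf/f replicate 3, and 0.0570 or 0.115 when Toxf/fPdcd1Cre replicate 2 or 3 was left out.

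Vpreb3, which binds the heavy chain in precursor B cells, held 8 and 8 counts in Toxf/f and 15, 34 and 19 in Toxf/fPdcd1Cre (log2 fold change 1.58 ± 0.588, 95% interval 0.30 to 2.87, adjusted p = 0.327). Vpreb1, the partner of lambda-5, was at 0.70 and 0.54 CPM in Toxf/f and at 1.16, 1.79 and 1.03 CPM in Toxf/fPdcd1Cre (log2 fold change 1.09 ± 0.560, 95% interval -0.14 to 2.31, adjusted p = 0.551). Replicate 2 was the highest library for both. Vpreb2, its near-identical copy, held 1 and 0 counts in Toxf/f and 3.16, 3 and 3 in Toxf/fPdcd1Cre and was not tested.

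Vpreb1 and Vpreb2 are hard to separate by reads. Their coding sequences of 426 bases each differ at 9 positions and are 97.9% identical. The stretch below, coding bases 328 to 387 of each gene from GENCODE M21 on GRCm38, holds 5 of the differences, shown in capitals.
Vpreb1: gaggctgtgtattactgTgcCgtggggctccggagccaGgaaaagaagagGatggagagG
Vpreb2: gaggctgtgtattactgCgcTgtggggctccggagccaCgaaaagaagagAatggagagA
In Toxf/fPdcd1Cre replicate 1 the estimated counts were 16.84 and 3.16, which sum to 20. The sums of both genes were 12 and 9 counts in Toxf/f and 20, 31 and 18 counts in Toxf/fPdcd1Cre. Most of each sum is Vpreb1, which was tested only because of its counts in Toxf/fPdcd1Cre, so no direction is read from the sums. Vpreb1 also overlaps Top3b, on the other strand.

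Ebf1 and Pax5, which start and hold the B lineage programme, gave no called difference. Ebf1 ranged from 2.95 to 5.54 CPM in Toxf/f and from 4.51 to 6.67 CPM in Toxf/fPdcd1Cre (log2 fold change 0.31, 95% interval -0.45 to 1.06, adjusted p = 0.870). Pax5 ranged from 0.62 to 1.44 FPKM in Toxf/f and from 0.80 to 1.18 FPKM in Toxf/fPdcd1Cre (log2 fold change -0.34, 95% interval -1.04 to 0.36, adjusted p = 0.829). Both were lowest in the shared Toxf/f library.

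Blnk, the adaptor downstream of the pre-B and B cell receptors, was at 10.4 and 13.1 CPM in Toxf/f and at 11.3, 6.57 and 5.09 CPM in Toxf/fPdcd1Cre. Replicate 1 lay among the Toxf/f values and the other 2 below them (log2 fold change -0.62 ± 0.308, adjusted p = 0.536). Plasmacytoid dendritic cells also express Blnk, and their 14 listed markers are given beside it. The list summed to 1551 to 1575 CPM in Toxf/f and to 1345 to 1558 CPM in Toxf/fPdcd1Cre, most of it Ccr9, which thymocytes also express, with none of 13 tested called and none at 0 in any library. The log2 fold change was below 0 for 11 of the 13 and above 0 for 2, with a median of -0.25. Over all 14121 genes tested it was below 0 for 6388. Their part in the level of Blnk was not tested. Ly6d was at 277 and 265 CPM in Toxf/f and at 264, 334 and 334 CPM in Toxf/fPdcd1Cre, with overlap (log2 fold change 0.20, 95% interval -0.12 to 0.52, adjusted p = 0.751).

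Of 16 further genes of B cell precursors, all were tested, with a median log2 fold change of 0.12. None was called higher, and 3 were called lower (18.75%, against 1.51% of all genes tested). These were Il7r, the interleukin-7 receptor chain, Lef1, a WNT pathway factor, and Flt3, a growth factor receptor of progenitors and dendritic cells, and none of the 3 is restricted to the B lineage. Lef1 was at 388 and 376 CPM in Toxf/f and at 221, 219 and 267 CPM in Toxf/fPdcd1Cre (log2 fold change -0.70 ± 0.138, adjusted p = 0.0288). Flt3 was at 15.4 and 19.6 CPM and at 8.68, 9.38 and 7.22 CPM (log2 fold change -1.05 ± 0.208, adjusted p = 0.0277). Il7r was at 48.8 and 53.5 CPM and at 36.4, 24.8 and 30.3 CPM (log2 fold change -0.75 ± 0.166, adjusted p = 0.0496). In each the genotypes did not overlap. All 3 calls were lost without either Toxf/f library, those of Il7r and Lef1 also without Toxf/fPdcd1Cre replicate 2, and those of Il7r and Flt3 also without Toxf/fPdcd1Cre replicate 3 (adjusted p 0.0677 to 0.464). Rag1 and Dntt, the recombination genes with the highest mean CPM of the list, which T cell precursors share, had adjusted p-values of 0.738 and 0.714.

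**Figure D4:**
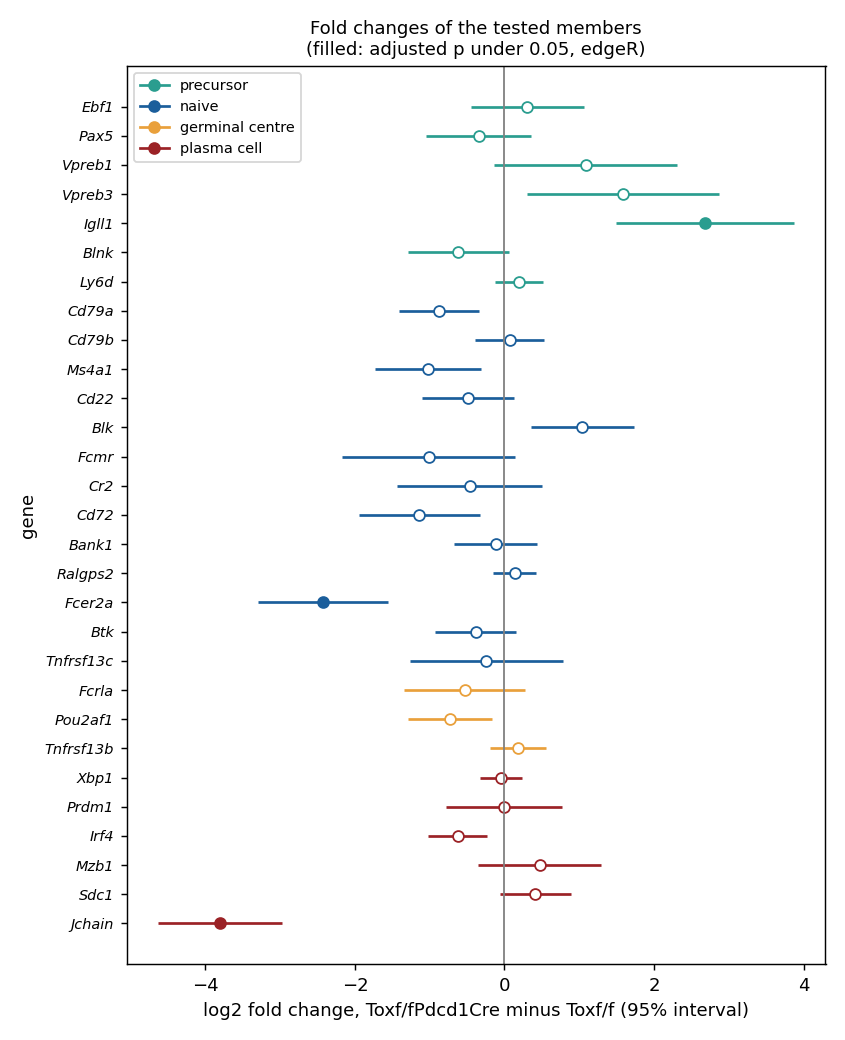
Log2 fold change (Toxf/fPdcd1Cre minus Toxf/f) of the 29 tested members with its 95% interval, coloured by stage, filled where the adjusted p was under 0.05. Jchain at -3.80 and Fcer2a at -2.43 lie left of the rest and Igll1 at 2.68 lies right, while the naive genes sit mostly left of 0.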

How the data were processed

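The authors deposited, per sample, a table of estimated counts and FPKM per gene, per the file headers. The submitters' processing notes list StringTie 1.3.1, fastp 0.18.0 and HISAT2. What each did, the genome build, the counting step and strand use were not given in the sources used here. Between 8.81% and 9.84% of genes per library had counts that were not whole. Identical tables were counted once, giving 5 libraries of 6 samples where 3 against 3 was planned. Counts were rounded, filtered with filterByExpr (minimum count 10, here 0.6486 CPM in 2 libraries), scaled by TMM and tested with edgeR 4.0.16 (quasi-likelihood, R 4.3.3) over 14121 genes, with Benjamini-Hochberg adjustment at 0.05. The script was tested on simulated data. FPKM was used to compare genes and in limma 3.58.1 on log2(FPKM + 1). CPM is on TMM-scaled sizes. SE is the log2 fold change over the root of F.

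The members and all gene lists were chosen with earlier results of these data known. Members past the threshold, without overlap between genotypes, or at 10 CPM or more in a genotype's mean are given in every library, the others as ranges. Of related lists, called genes and the 2 with the highest mean CPM are named. Lists of regulatory T cell, thymic epithelial, double-positive and double-negative thymocyte markers had 5, 2, 0 and 2 genes called lower and none higher. Those called lower were 62.5%, 15.4%, 0% and 16.7% of the genes tested in each list, against 1.51% of all genes tested. Promoters of 5 members were not used here. Some genes that the lists could hold are not reported here. Alternatives were other scalings and filters, DESeq2 1.42.0, limma-voom, FPKM with pseudocounts of 1 or 0.1, a replicate block, age, identical files counted separately and leaving out each library.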

Additional observations from a re-analysis of the deposited data

How the results depend on the processing

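Jchain was called lower under all 18 alternatives, Fcer2a under 14 and Igll1 under 9, each with its direction kept under all 18. The number of genes called, 232, was 417 with no filter on low counts, 359 with DESeq2 and 126 with limma on log2(FPKM + 0.1). It was 44 on log2(FPKM + 1) with no filter, 125 with age as a covariate and 380 with the identical files counted separately. That last setting entered 1 table as 2 replicates, so its calls add no independent support to the tallies over the 18. Leaving out 1 library gave 31 to 606 genes, with 1 to 2 members lower and 0 to 1 higher. The 2 members called lower became 1 on log2(FPKM + 0.1) and 1 on log2(FPKM + 1) with no filter, where Fcer2a had adjusted p-values of 0.0518 and 0.116. The 1 called higher, Igll1, became 0 with upper-quartile factors (adjusted p = 0.0506), with limma-voom (0.0522), on log2(FPKM + 1) with no filter (0.0614) and with age as a covariate (0.0943).

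Replicate numbers are not said to pair samples. Of deviations from the group means, same-numbered libraries correlated at -0.198 (1), 0.105 (2) and -0.157 (3). The deviations of the 2 Toxf/f libraries mirror each other, and the first 2 values use the same shared library. These values therefore cannot show or exclude pairing. The replicate block was fitted with the shared library as replicate 1 and then as replicate 2, keeping only replicate numbers present in both genotypes. The first fit thus left out Toxf/fPdcd1Cre replicate 2, and the second left out Toxf/fPdcd1Cre replicate 1. The first called 362 genes, with 0 members higher (Igll1 0.0930) and Cd79a also lower (adjusted p = 0.0402). The second called 839, with Blnk also lower (0.0324). In these fits the block and the missing library cannot be told apart. In the block fits Cd79b had log2 fold changes of -0.0550 and -0.13, Prdm1 0.17 in the first and Mzb1 -0.15 in the second.

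Of 662 recomputed log2 fold changes of 37 genes 23 changed sign, over 10 genes, none of them called. Cd79b was at -0.0269 on log2(FPKM + 1) with or without the filter, -0.0303 on log2(FPKM + 0.1) and -0.0184 with age. Pax5 was at 0.0261 on log2(FPKM + 0.1), Cr2 at 0.0211 on log2(FPKM + 1) with no filter and Prdm1 at 0.00405 with no filter on counts. With 1 library left out Ebf1 ranged from -0.0719 to 0.83, Pax5 from -0.77 to 0.27, Cd79b from -0.10 to 0.26, Bank1 from -0.33 to 0.14, Fcrla from -0.95 to 0.0748, Tnfrsf13b from -0.0129 to 0.42, Xbp1 from -0.15 to 0.0724, Prdm1 from -0.23 to 0.18 and Mzb1 from -0.12 to 0.79. Where an arm had 1 library its spread was taken from the other arm. The cause of these changes was not tested. Igll1, Vpreb1 and Vpreb3 rest on 5 to 37 counts a library, where depth limits precision.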
